A study of Rattus norvegicus with 2 samples.

Results

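Lipid carriers, lipases and fatty acid binders are the proteins that move fat between and inside cells, and 10 of their genes were followed here in rat OPCs (oligodendrocyte precursors), glial cells that mature into the oligodendrocytes that make myelin. The genes are the carriers Apoe, Clu and Pltp, the lipases Lpl, Pnlip and Lipe, the fatty acid binding proteins Fabp3, Fabp5 and Fabp7, and the lipoprotein receptor Lrp1. They were taken by symbol from the 17455 genes of the deposited expression table, and all 10 were present. The set was built around Apoe, Pnlip and Fabp7 because their values differed between the libraries, so the differences of the 10 genes are given as a description and without a test. The cells were wild type and were transfected with a Lonza kit, receiving either the vector alone or Slit1, which encodes a secreted ligand of Robo receptors, so that both groups went through transfection. One library was made for each group, and they are called vector and Slit1. The rat strain and age, the purity of the cells and the time from transfection to harvest are not stated in the labels or files.

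In the brain, lipid leaves glial cells on small lipoprotein particles that carry apolipoprotein E and clusterin, and receptors of the LDL receptor family, LRP1 among them, take these particles up. Lipases release fatty acids from triglycerides, and small cytosolic binding proteins carry the fatty acids through the cell. Oligodendrocytes need large amounts of cholesterol and fatty acids to build the myelin membrane.

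Estimated counts came to 18817462 for vector and 18998770 for Slit1. Slit1 itself measured 1.70 TPM (transcripts scaled to an equal total in each library, a level corrected for transcript length) in vector and 229.7 TPM in Slit1, so the transfected gene was high in the library labelled with it. A table per gene does not separate construct reads from those of the cell's own gene. Of 8 precursor markers all 8 were at a mean of at least 1 TPM, and their summed level was 2210 TPM in vector and 2145 TPM in Slit1. Single markers differed more than this sum: 6 were higher in Slit1 and 2 lower. Gpr17, the only one at least 2-fold apart, was at 109.8 TPM in vector and 263.0 TPM in Slit1. Ptprz1, the most abundant, was at 913.6 and 688.2 TPM. Astrocyte markers were abundant as well: 11 of 12 were at a mean of at least 1 TPM, with summed levels of 9624 TPM in vector and 10602 TPM in Slit1. The sum does not stand for the single markers, since 5 of these 11 were higher in Slit1 and 6 lower. Gfap, the astrocyte intermediate filament gene, alone held 4694 TPM of the astrocyte sum in vector and 6130 TPM in Slit1. It ranked 9 of all genes in vector and 7 in Slit1. RNA of a gene that defines astrocytes was thus among the most abundant in libraries labelled OPC. Of 12 microglial markers 7 were in the table, and 5 of these were under 1 TPM in both libraries. Summed marker levels in vector and Slit1 were 192.7 and 208.0 TPM for neurons, 5.72 and 3.67 TPM for endothelium, 23.3 and 22.4 TPM for fibroblasts and pericytes, and 463.7 and 526.4 TPM for Schwann cells, a list that includes Sox10 and Pmp22, which other glia also express. Of the 4 Schwann cell markers at a mean of at least 1 TPM, 2 were higher in Slit1 and 2 lower. Sox10 measured 71.4 and 218.0 TPM, Pmp22 377.9 and 300.8 TPM, and Egr2 11.4 and 4.69 TPM.

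Start regions are shown for the genes the set was built around, since these are among the stretches where regulators of a gene can bind. The RefSeq promoter table (build GRCr8) held 6 of the 10 genes (Apoe, Pltp, Pnlip, Fabp3, Fabp7 and Lrp1), with 3 starts for Apoe. The submitters' notes name another build, mRatBN7.2, for the expression table, so the genes were matched by gene number and not by position. The 250 bases before each start are given 5′ to 3′ on the strand of the gene. They lie at chr1:267784360-267784609 (plus strand) for Pnlip, chr1:88484700-88484949 (minus strand) for the middle one of the Apoe starts, a region that lies downstream of the most upstream Apoe start, and chr20:37669356-37669605 (plus strand) for Fabp7, all in GRCr8. Capitals mark SOX core letters (ACAAT) and the TATA box (TATAAA) in Pnlip, GC boxes (GGGCGG) in Apoe and CCAAT boxes (CCAAT) in Fabp7, each on either strand, and no marked match overlaps another.
Pnlip: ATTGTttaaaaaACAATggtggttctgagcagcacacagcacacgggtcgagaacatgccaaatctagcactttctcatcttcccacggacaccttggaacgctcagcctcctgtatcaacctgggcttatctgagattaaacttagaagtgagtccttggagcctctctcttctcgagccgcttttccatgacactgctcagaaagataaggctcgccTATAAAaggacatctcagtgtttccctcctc
Apoe: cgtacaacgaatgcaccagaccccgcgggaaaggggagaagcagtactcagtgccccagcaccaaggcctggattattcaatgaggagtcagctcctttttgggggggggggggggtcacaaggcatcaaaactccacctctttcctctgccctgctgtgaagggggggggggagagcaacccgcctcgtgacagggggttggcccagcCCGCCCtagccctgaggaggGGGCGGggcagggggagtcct
Fabp7: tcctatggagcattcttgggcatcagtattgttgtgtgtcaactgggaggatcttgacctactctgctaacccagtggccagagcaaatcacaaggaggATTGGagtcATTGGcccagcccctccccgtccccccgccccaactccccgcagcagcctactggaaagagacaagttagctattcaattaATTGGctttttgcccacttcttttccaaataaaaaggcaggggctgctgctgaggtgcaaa

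The start region of Pnlip held 2 SOX core matches, beginning 250 and 238 bases before the start, and 1 TATA box beginning 31 bases before it. Over all 33469 start regions of this length in the table, 30.02% held a SOX core match and 12.9% a TATA box. The Apoe region shown held 2 GC boxes (found in 30.5% of all regions), beginning 41 and 21 bases before the start, and 0 matches to the other motifs searched. The Fabp7 region held 3 CCAAT matches (34.0% of all regions had at least 1) and, unmarked, 1 SOX core match and 1 GC box. E-boxes (CANNTG, in 65.5% of all regions) were absent from the Pnlip and this Apoe region and present once in that of Fabp7. The Apoe regions not shown held other matches. That of the most downstream start held the same 2 GC boxes, 1 SOX core match and 1 CCAAT match. That of the most upstream start held 3 E-boxes and 0 matches to the other motifs. These are matches of letters. No binding was measured in this study.

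The 10 genes covered a wide range of levels, and their order was nearly the same in both libraries. In vector Fabp7 was highest at 3426 TPM, followed by Apoe, Fabp5, Clu, Lrp1, Pnlip, Pltp, Fabp3, Lipe and Lpl, the lowest at 4.32 TPM. By the 95% counting intervals of the levels, Pnlip could not be separated from Pltp in vector, nor Fabp3 from Lipe in either library. In Slit1 Apoe stood above Fabp7 and Pnlip above Lrp1. Together the genes made up 0.866% of all TPM in vector and 0.963% in Slit1.

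**Figure D1:**
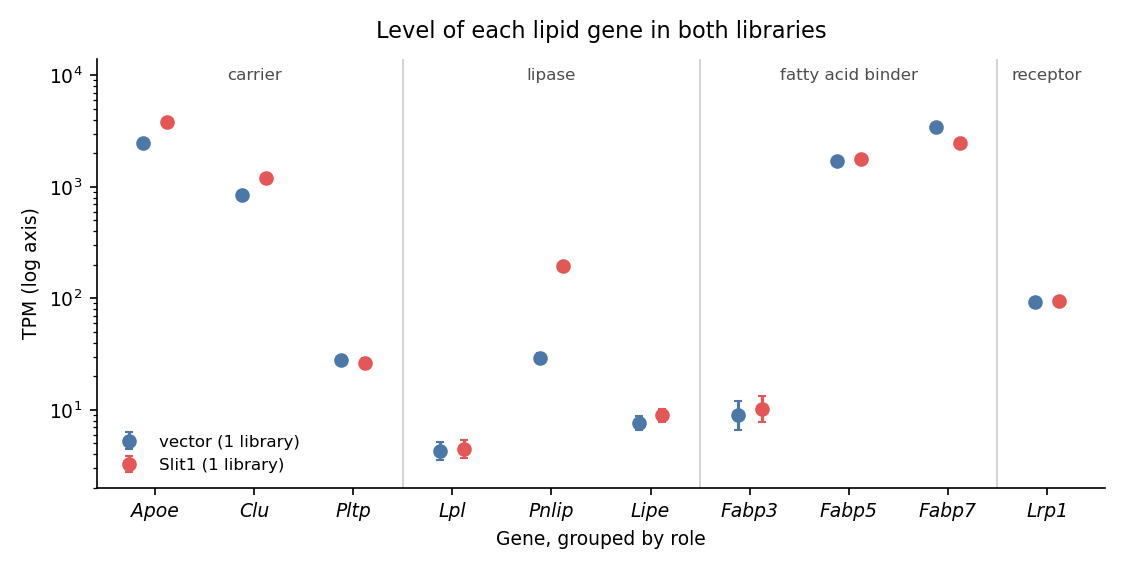
Level of the 10 lipid genes in TPM (log axis) in the vector library (blue) and the Slit1 library (red), 1 library each, grouped by role; bars are 95% counting intervals and are often smaller than the points. Apoe, Clu and Pnlip sit higher in Slit1, Fabp7 sits lower, and the points of the other 6 genes lie close together.

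The differences were concentrated in a few genes. On the scale of log2(TPM + 1), 1 of the 10 genes, Pnlip, was at least 2-fold higher in Slit1 and 0 were at least 2-fold lower, where 1.24% and 0.645% of the 13175 genes that averaged 1 TPM or more were higher and lower by that amount. At a limit of 1.5-fold, Apoe joined Pnlip, which gave 2 higher genes and 0 lower against 3.72% and 4.83% of all genes. Nothing is read from these counts, since the choice of the genes used the same contrast. The median difference of the 10 genes was 0.10, and that of all 13175 genes was -0.05. With 1 library in each group no spread between cultures could be measured, and all intervals cover counting error only.

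Pnlip encodes pancreatic lipase, a secreted enzyme that splits dietary triglycerides in the gut. It was at 29.4 TPM (395 estimated counts) with vector and at 193.7 TPM (2680 estimated counts) with Slit1. This moved the gene from rank 6131 to rank 942 among all genes of the table. The ratio was 6.58 (95% counting interval 5.92 to 7.33), the largest of the 10 genes. Markers of the exocrine pancreas, where the gene is best known, were near 0: 6 of 11 were in the table, none exceeded 0.93 TPM in either library, and their summed level was 2.94 TPM in vector and 3.14 TPM in Slit1. The related genes Pnliprp1 and Pnliprp2 were looked for by symbol and were not found in the table. Of the 11 oligodendrocyte markers in the table, 10 were at least 2-fold higher in Slit1 on the log2(TPM + 1) scale and Mobp (0.28 and 0.44 TPM) was not. Of the 13175 genes at a mean of at least 1 TPM, 1.24% were higher by that amount. Mog (0.15 and 1.93 TPM) reached a mean of 1 TPM only through its level in Slit1. The markers had summed levels of 1227 TPM in vector and 4877 TPM in Slit1. Their part in the Pnlip difference was not tested, and in bulk RNA more cells of a type cannot be told apart from more RNA per cell.

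The other lipases were scarce. Lpl, the lipoprotein lipase that acts on circulating particles, was at 4.32 TPM (111.3 counts) with vector and at 4.47 TPM (120.0 counts) with Slit1, with a ratio of 1.03 (interval 0.795 to 1.36). Lipe, the hormone-sensitive lipase of lipid droplets, was at 7.64 TPM with vector and at 8.95 TPM with Slit1, a ratio of 1.17 (interval 0.970 to 1.42). Both intervals include 1, and at these counts a difference of the sizes inside the intervals was not detectable. As a share of the summed level of the 3 lipase genes, Pnlip made up 71.1% in vector and 93.5% in Slit1.

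Among the carriers, the genes of both proteins of glial lipoprotein particles were higher in Slit1. Apoe, the main apolipoprotein of the brain, was at 2497 TPM (23666 counts) with vector and at 3849 TPM (37982 counts) with Slit1, a ratio of 1.54 (interval 1.52 to 1.57). It went from rank 24 to rank 13 of all genes. Clu, which encodes the secreted chaperone clusterin (apolipoprotein J), was at 842 TPM with vector and at 1207 TPM with Slit1, a ratio of 1.43 (interval 1.40 to 1.47), and passed neither fold limit. Within each library Apoe exceeded Clu by a similar factor, 2.97 in vector and 3.19 in Slit1. The third carrier, Pltp, encoding the phospholipid transfer protein, was nearly level. It was at 28.0 TPM with vector and at 26.6 TPM with Slit1, and the interval of its ratio included 1 (0.947, interval 0.832 to 1.08).

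Lrp1, the large endocytic receptor that binds apolipoprotein E particles, was nearly level. It was at 93.5 TPM (11865 counts) with vector and at 94.2 TPM (12444 counts) with Slit1, a ratio of 1.01 (interval 0.982 to 1.03). The level of Apoe relative to that of Lrp1 was accordingly 26.7 in vector and 40.9 in Slit1. These ratios within a library do not depend on how the libraries were scaled to each other.

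The fatty acid binding proteins were split. Fabp7, the brain form found in radial glia, astrocytes and OPCs, was at 3426 TPM (16381 counts) with vector and at 2471 TPM (12295 counts) with Slit1, which is 1.39-fold lower in Slit1 (interval 1.35 to 1.42). It ranked 14 of all genes in vector and 25 in Slit1. Fabp5, the epidermal form, which is also made in glia and neurons, was at 1721 TPM with vector and at 1768 TPM with Slit1, a ratio of 1.03 (interval 0.998 to 1.06). Fabp3, the heart form, was scarce, with 8.99 TPM (48.0 counts) in vector and 10.2 TPM (56.7 counts) in Slit1, and its ratio of 1.13 had a wide interval of 0.763 to 1.71. In TPM, Fabp7 was the only one of the 3 with an interval that left out 1.

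The make-up of the family's summed level differed between the libraries. Over the 6 family genes in the table (the 3 above with Pmp2, Fabp4 and Fabp2) the sum was 5214 TPM in vector and 4284 TPM in Slit1. Fabp7 made up 65.7% of it in vector and 57.7% in Slit1, and Fabp5 33.0% and 41.3%. The level of Fabp7 relative to Fabp5 was 1.99 in vector and 1.40 in Slit1. Pmp2, the family member of peripheral myelin, was lower in Slit1 as well, as given below, while Fabp4 (4 and 1.96 counts) and Fabp2 (1 and 0 counts) were at the limit of detection.

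**Figure D2:**
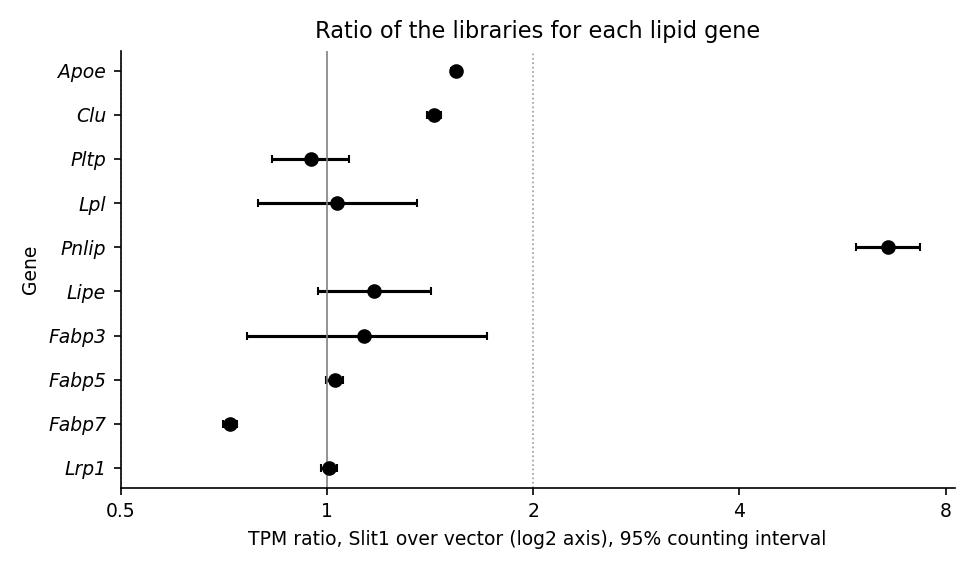
Ratio of TPM, Slit1 over vector (log2 axis), for each of the 10 genes with its 95% counting interval; the solid line marks 1 and the dotted line 2-fold. Pnlip alone lies past 2-fold, Apoe lies at 1.54 and Clu at 1.43, Fabp7 lies below 1, and the intervals of the other 6 genes include 1.

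The interval of the ratio left out 1 for 4 of the 10 genes (Apoe, Clu, Pnlip and Fabp7) and included it for 6. When CPM (counts scaled by the library total alone) replaced TPM, it left out 1 for 6, since Fabp5 (1.06, interval 1.03 to 1.09) and Lrp1 (1.04, interval 1.01 to 1.07) then lay just above 1. For these 2 abundant genes the choice of scaling was as large as the difference. The Apoe, Clu and Fabp7 ratios in CPM were 1.59, 1.47 and 0.743. The transcript length implied by the authors' FPKM and counts was nearly the same in both libraries for each gene, from a ratio of 0.979 in Lipe to 1.0003 in Lrp1. A change of implied length thus had little part in the ratios. It does not cover the scaling of the libraries, which also sets TPM ratios apart from those in CPM.

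Astrocyte markers lay on both sides of 0. Slc1a2, a glutamate transporter, was at 215.4 TPM with vector and at 94.1 TPM with Slit1. Gja1, which encodes connexin 43, measured 506.2 and 295.7 TPM, and Sox9 82.5 and 60.1 TPM, so these were lower in Slit1. Gfap measured 4694 and 6130 TPM, Aqp4, a water channel gene, 389.2 and 462.5 TPM, and Agt 5.40 and 8.29 TPM, so these were higher. The remaining markers differed less, with ratios of 0.880 for Slc1a3, 0.933 for S100b, 0.932 for Fgfr3, 1.03 for Aldh1l1 and 1.12 for Aldoc. Over the 11 astrocyte markers at a mean of at least 1 TPM, 5 were above 0 and 6 below, and the median difference was -0.10. The share of astrocyte RNA in the Apoe, Clu and Fabp7 values was not tested.

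**Figure D3:**
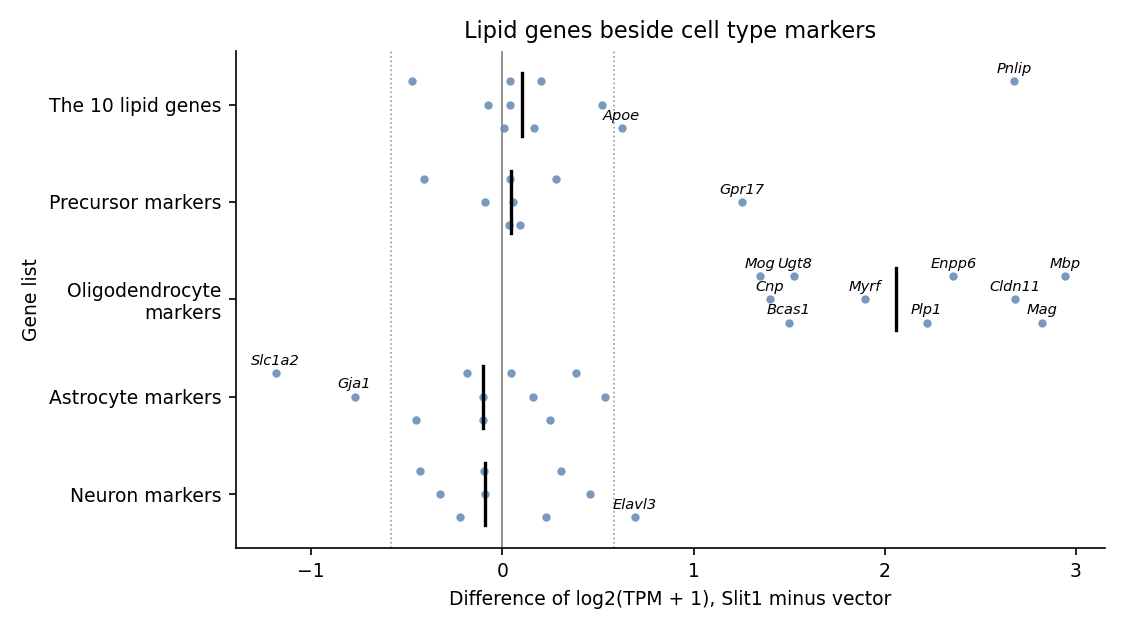
Difference of log2(TPM + 1), Slit1 minus vector, for the 10 lipid genes and for markers of 4 cell types at a mean of at least 1 TPM; each point is a gene, black bars are medians, dotted lines mark 1.5-fold, and genes past them are named. The oligodendrocyte markers shown lie to the right with a median of 2.06 (Mobp, below that mean, is not shown). Astrocyte markers spread around 0 with a median of -0.10. Pnlip, around which the set was built, lies at 2.68, and no relation of it to the markers was tested.

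Other genes of lipid transport were measured in 6 lists with 142 different genes, of which 123 were in the table and 95 had a mean of at least 1 TPM. On the log2(TPM + 1) scale, 6 of these 95 were at least 1.5-fold higher in Slit1 (6.32%, against 3.72% of all genes) and 2 were lower (2.11%, against 4.83% of all genes). With the median gene set to 0, 8 were higher (8.42%, against 4.43% of all genes) and 2 lower (2.11%, against 3.72%). As plain TPM ratios, 8 were higher (8.42%, against 4.93% of all genes) and 6 lower (6.32%, against 6.83%), a count added after the data were seen. The median difference was -0.03, close to that of all genes at -0.05.

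The 6 higher genes were found in 3 lists. Of the 10 apolipoprotein and transfer protein genes 2 were higher: Apod, the apolipoprotein of myelinating glia and other cells, was 3.01-fold higher (17.2 and 51.9 TPM, interval 2.44 to 3.73), and Lcat, the enzyme that esterifies cholesterol on particles carrying apolipoprotein E, was 1.76-fold higher (73.5 and 129.2 TPM, interval 1.62 to 1.91). Of the 14 genes of lipid droplets and triglyceride synthesis 1 was higher, Dgat2, which catalyses the last step of triglyceride synthesis (21.3 and 52.2 TPM, 2.45-fold, interval 2.17 to 2.77). Of the 18 genes of fatty acid binding, uptake and activation 3 were higher. These were Mfsd2a, a transporter of lysophosphatidylcholine (10.5 and 21.6 TPM, 2.06-fold, interval 1.72 to 2.48), and the acyl-CoA synthetase genes Acsl3 (1.75-fold, interval 1.67 to 1.83) and Acsl1 (1.69-fold, interval 1.47 to 1.96).

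The 2 lower genes were Ppargc1a and Pmp2. Ppargc1a, a transcriptional coactivator of mitochondrial and fatty acid oxidation genes, was at 11.6 TPM with vector and at 5.53 TPM with Slit1 (2.10-fold lower, interval 1.84 to 2.40). Pmp2, the fatty acid binder named above, was at 56.9 TPM with vector and at 35.0 TPM with Slit1 (1.62-fold lower, interval 1.43 to 1.84). None of the 18 genes of lipases and their cofactors and none of the 19 lipoprotein receptor genes passed 1.5-fold in either direction on the log2(TPM + 1) scale. As plain TPM ratios, 1 gene of each of these lists passed, both at low counts, with intervals that include 1 and named after their values were seen: G0s2, an inhibitor of the lipase ATGL, was 1.69-fold lower (2.21 and 1.31 TPM, interval 0.648 to 4.70), and the lipoprotein receptor gene Lsr 1.65-fold lower (1.35 and 0.82 TPM, interval 0.890 to 3.20). Under each other scaling (FPKM, CPM, edgeR TMM factors and the median gene set to 0) the lipoprotein receptor gene Scarb1 was also at least 1.5-fold higher, with differences of 0.59 to 0.61.

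The most abundant gene of each list differed little. Dbi, the acyl-CoA binding protein, was at 2877 TPM with vector and at 2396 TPM with Slit1, a ratio of 0.833. Npc2, a lysosomal cholesterol binder, had a ratio of 1.08 and Lipa, the lysosomal acid lipase, 0.879. Gpam, which starts glycerolipid synthesis, had a ratio of 0.941, the receptor gene Lrp10 0.982, and Srebf1, a transcription factor of lipid synthesis, 1.12.

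**Figure D4:**
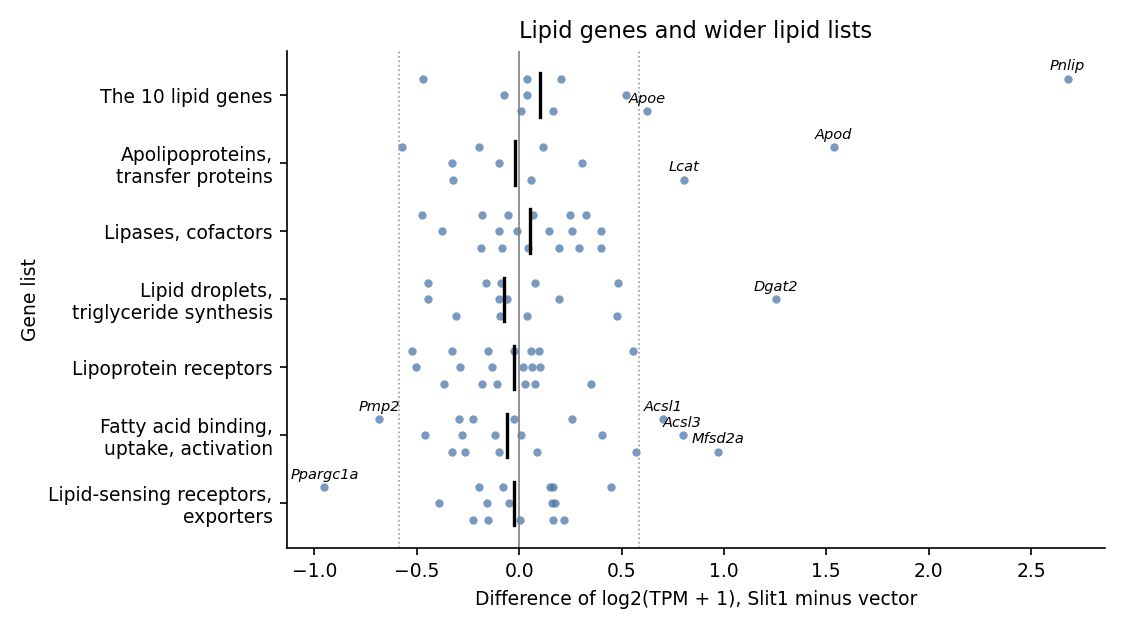
Difference of log2(TPM + 1), Slit1 minus vector, for the 10 lipid genes and for 6 lists of other lipid genes at a mean of at least 1 TPM; each point is a gene, black bars are medians, dotted lines mark 1.5-fold, and genes past them are named. The medians of the 6 lists lie between -0.07 and 0.05, and Pnlip at 2.68 lies to the right of every other gene shown.

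Genes next to the 10 lipid genes were read for their values. Order along the chromosome came from the GRCr8 gene table. The measured neighbours of Pnlip with at least 1 TPM did not share its difference: Gfra1, the GDNF coreceptor gene, was at 67.3 TPM with vector and at 41.5 TPM with Slit1, Hspa12a 3.91 and 2.93 TPM, and Eno4 5.72 and 5.15 TPM. Beside Apoe, Tomm40 had a ratio of 1.10 (interval 1.02 to 1.17), Nectin2 1.18 (interval 1.09 to 1.28), and the apolipoprotein gene Apoc1 rested on 16 and 20 counts. Beside Fabp7, the closest measured gene before it was Pkib (0.48 and 0.12 TPM, 5 and 1 counts), and the next was Serinc1. Serinc1, a membrane protein gene, was lower in Slit1 (398.9 and 264.3 TPM, ratio 0.662, interval 0.646 to 0.679). Smpdl3a, on the other side of Fabp7, had a ratio of 0.848. Pmp2 lies beside Fabp5, which did not share its lower value. Clu, Pltp and Fabp3 each overlap a measured gene in that annotation (Scara3, Ctsa and Zcchc17), with ratios of 1.09, 1.01 and 1.03. The labels and files do not say how strand and shared reads were handled, so reads of the overlapping stretches cannot be assigned to one gene.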

How the data were processed

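RNA from 2 libraries of rat OPCs, 1 transfected with vector and 1 with Slit1, was compared. Per the file headers the authors deposited FPKM, TPM and estimated read counts for each gene and library. The deposited TPM values sum to 1000000 in each library and the deposited FPKM values to 459452 in vector and 473673 in Slit1, while the estimated counts are not normalized. The submitters' processing notes name the genome build mRatBN7.2. For aligner, counter and annotation nothing is given in the sources used here. The number of value columns of other samples was 0.

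Libraries were compared by log2(TPM + 1), with vector subtracted from Slit1, a scale that understates changes of low genes, over the 13175 genes at a mean of at least 1 TPM. All 10 lipid genes passed this filter. With 1 library a group no p-value was computed. Ratios carry an exact (Clopper-Pearson) 95% interval from the counts rounded to whole numbers, and levels an exact Poisson interval. Both cover counting error only. The calculation was tested on simulated data. The members and lists were chosen with earlier results of these data known, and the named genes are the 10 lipid genes, Slit1, every gene of the wider lipid lists past 1.5-fold at 1 TPM and the most abundant gene of each list in vector. The marker genes, neighbours, other FABP genes and motifs named beside them were chosen after their values or those of the lipid genes were seen. A gene of the wider lists is not reported here. Alternatives were pseudocounts of 0.1 and 5, filters at 0 and 5 TPM, FPKM, CPM, TMM factors (edgeR 4.0.16), centring on the median gene, other fold limits and interval limits. Plain TPM ratios of the wider lists were an alternative chosen after seeing the data. Calculations used Python 3.11.15 and scipy 1.17.1.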

Additional observations from a re-analysis of the deposited data

How the results depend on the processing

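No paired analysis was possible because each group has 1 library. The sign of the difference of each of the 10 lipid genes was the same under the 6 alternatives that rescale it, but sizes shifted. For Apoe, Fabp5, Fabp7 and Lrp1 the shift exceeded the counting error of the gene's ratio in 4 of the 6, and for Clu in 3. The sign says little for genes near 0, such as Lrp1, which ranged from 0.01 to 0.07. Pnlip ranged from 2.53 to 2.72, Apoe from 0.62 to 0.68, Clu from 0.52 to 0.57 and Fabp7 from -0.47 to -0.42. The number of the 10 genes past 2-fold was 1 higher and 0 lower in every alternative except the 1.5-fold limit, where 2 were higher. Of the 95 wider lipid genes, 2 were higher (2.11%) and 0 lower at a 2-fold limit on the log2(TPM + 1) scale, against 1.24% and 0.645% of all genes. With a pseudocount of 0.1, 7 were higher and 5 lower at 1.5-fold. When the whole counting interval had to pass 1.5-fold, 5 were higher and 1 lower. The share of all genes was not computed for the pseudocount and interval settings, so nothing is read from these counts. As plain TPM ratios, an alternative chosen after seeing the data, 8 were higher (8.42%) and 6 lower (6.32%) at 1.5-fold, against 4.93% and 6.83% of all genes. At 2-fold, 3 were higher and 1 lower, and no share of all genes was computed for that limit. In FPKM, in CPM, with edgeR TMM factors and with the median gene set to 0, 8 wider genes (8.42%) were higher in place of 6, and 2 (2.11%) were lower. The background moved with the scaling too. Of all genes, 3.29% were higher and 2.74% lower in FPKM, and 3.93% and 3.55% in CPM. The shares were 4.06% and 3.47% with TMM factors, and 4.43% and 3.72% with the median gene set to 0. Over all genes, 43.5% of those past 1.5-fold were higher in TPM, 54.6% in FPKM, 52.5% in CPM, 53.9% with TMM factors and 54.3% with the median gene set to 0. The median of all genes was -0.05 in TPM and within 0.01 of 0 in FPKM, CPM and with TMM factors. Lpl, Lipe and Fabp3 are limited by their counts. No spread between cultures can be measured with 1 library a group.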

Other observations

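Cnfn, the gene next to Lipe in the GRCr8 gene order, measured 0.25 TPM (5.70 counts) with vector and 2.36 TPM (56.2 counts) with Slit1, a ratio of 9.44 (95% interval by counting 3.86 to 25.4), while Lipe had a ratio of 1.17. Cnfn encodes cornifelin, and it was noticed after its values were seen. Ttpa, the alpha-tocopherol transfer protein gene, lay just short of the limit of 1.5-fold lower on the log2(TPM + 1) scale, at 13.2 TPM with vector and 8.56 TPM with Slit1 (ratio 0.648, interval 0.538 to 0.781).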
